A study of Mus musculus with 5 samples.

Results

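Receptors of the ERBB family, their adaptors and their feedback genes were followed in bone marrow-derived macrophages (BMDMs) that had been cocultured for 48 hours with 4T1 cells, a mouse mammary carcinoma line. The 10 genes were listed by symbol and matched by Entrez Gene identifier, and all 10 had counts, among 17058 genes with a count in at least 1 of the 5 libraries. 2 libraries came from coculture with WT 4T1 cells and 3 from coculture with 4T1 cells in which *Adam17* was knocked out (*Adam17*-/-). The macrophages themselves were Balb/c cells with an intact *Adam17* gene in every group, grown from bone marrow with M-CSF, and a porous membrane kept them apart from the cancer cells. The labels give no age for the mice. They give the knock-out cells of all 3 libraries the same designation, 2.8, so that the loss of *Adam17* and any other trait of these cells cannot be told apart. Nothing in the labels says whether repeats were separate animals or cultures, so the p-values measure the spread between these 5 samples, which may be technical.

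ERBB receptors are tyrosine kinases of the cell surface that pair up when a ligand of the EGF family binds. ADAM17 cuts several of these ligands from the cell surface, among them HB-EGF and amphiregulin, and the coculture was sequenced to ask how ADAM17 of the cancer cells affects the macrophages. An active EGFR recruits SHC1 and GAB1, and through GRB2 and SOS1 it loads RAS and switches on the ERK kinases. The response is damped by inhibitors such as ERRFI1 and LRIG1, and ERK activity raises the transcripts of factors such as ETV5. ERBB3 has little kinase activity of its own and signals through its partners, whereas ERBB2 has no known ligand of its own.

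The libraries held 14658694 to 20788373 estimated counts. CPM is a gene's count scaled to the TMM-normalized library total, and 3 counts, taken as the floor, correspond to 0.157 to 0.197 CPM. Genes were compared between the groups with edgeR's quasi-likelihood test over the 12576 genes that passed its filter on low counts, and a gene passed where its p, adjusted by the Benjamini-Hochberg method, was at most 0.05. Log2 fold changes are *Adam17*-/- minus WT coculture throughout, given with the standard error (SE) of the fit. Macrophage markers were abundant in every library, and all 10 of a list of 10 were tested. Their summed level was 28143 to 28914 CPM with WT cells and 18307 to 20281 CPM in the *Adam17*-/- libraries, and 7 of the 10 passed as lower, where 16.8% of all genes tested passed as lower and 14.9% as higher. The 8 markers of the neutrophil lineage summed to 306 to 372 CPM with WT cells and to 1056 to 1198 CPM in the *Adam17*-/- libraries, with 7 of 8 passing as higher. Of 6 megakaryocyte markers 4 passed as higher (45.9 to 50.8 CPM in sum with WT and 74.3 to 128 CPM with *Adam17*-/- cells). The same held for 2 of 8 fibroblast markers (34.9 to 41.2 and 40.7 to 121 CPM) and 2 of 4 dendritic cell markers (6.65 to 10.8 and 14.5 to 21.9 CPM). The 4 lymphocyte markers summed to at most 1.58 CPM, *Cd3g* was at 0, and the 1 tested did not pass. Thus markers of other cells of the marrow moved between the groups, and their part in the results below was not tested. Fewer cells of a type and less RNA per cell cannot be told apart in such bulk samples. Of 12 markers of mammary epithelium, 9 never exceeded 3 counts in a library. *Krt5* was at 0 in all 5 libraries and *Epcam* had 1 count in all. *Cdh1* (E-cadherin) was the 1 epithelial marker with enough counts for the test, at 173 to 242 counts. The summed level of the 12 was 11.5 to 13.3 CPM with WT cells and 12.0 to 14.3 CPM in the *Adam17*-/- libraries.

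4 of the 10 genes decreased in macrophages cocultured with *Adam17*-/- 4T1 cells. They were the receptors *Egfr* and *Erbb3*, the adaptor *Gab1*, and the ERK-dependent transcription factor *Etv5*. Their log2 fold changes were -1.07, -0.65, -0.42 and -0.94 in this order, where the median of the 10 macrophage markers was -0.54. The falls of *Erbb3* and *Gab1* were thus of a size also seen in general macrophage markers. Of the 9 genes with enough counts for the test, these 4 passed as lower and 0 as higher by edgeR, against the 16.8% and 14.9% of all genes tested. Of all genes that passed, 46.9% were higher with TMM factors, 57.9% with upper quartile factors and 73.6% with library size only. At an unadjusted p under 0.05, the counts were 4 lower and 1 higher (22.6% and 20.9% of all genes). DESeq2 called 3 lower and 0 higher (14.9% and 12.6% of all genes), and limma on log2(FPKM + 0.1) called 2 lower and 1 higher (5.61% and 19.7%). In 6 of the 9 genes all *Adam17*-/- libraries lay under both WT libraries in CPM, and in 1, *Sos1*, they lay over both, against 29.7% and 28.4% of all genes tested. *Shc1*, *Errfi1*, *Lrig1* and *Hbegf* did not pass in either direction, and *Erbb2* had too few counts to be tested. With an added limit of 1 on the absolute log2 fold change, *Egfr* was the 1 gene left, where 0.867% of all genes passed as lower and 3.36% as higher. With an adjusted p under 0.001 and a limit of 0.25, *Etv5* was the 1 gene left, where 1.42% of all genes passed as lower and 1.05% as higher.

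The 10 genes covered a wide range of abundance, from 0.0200 to 62.1 FPKM. Levels of different genes were compared in FPKM, which the authors scaled to transcript length and library size, and which are summed here over the transcripts of a gene. In the WT libraries *Etv5* was the most abundant, at 60.1 and 62.1 FPKM, followed by *Shc1* at 39.9 and 41.5 FPKM and *Gab1* at 32.9 and 33.9 FPKM. *Errfi1*, at 6.49 and 6.57 FPKM, and *Sos1*, at 5.26 and 5.53 FPKM, formed a middle group. The receptors were scarce. *Erbb3* was at 1.08 and 1.53 FPKM and *Egfr* at 1.32 and 1.15 FPKM, so that their ranges overlapped and neither could be placed over the other. *Hbegf* followed at 0.390 and 0.580 FPKM. *Lrig1* (0.05 and 0.150 FPKM) and *Erbb2* (0.0700 and 0.0200 FPKM) stood at the bottom with overlapping ranges. Among all genes tested, the mean FPKM of *Egfr* over the 5 libraries lay at the percentile of 13.0 and that of *Etv5* at the percentile of 87.6. The order differed in the *Adam17*-/- libraries. *Shc1*, at 43.3 to 44.8 FPKM, lay over *Etv5*, at 33.2 to 37.8 FPKM. *Sos1*, at 6.66 to 7.34 FPKM, lay over *Errfi1*, at 5.64 to 6.55 FPKM. *Egfr*, at 0.610 to 0.720 FPKM, fell into the range of *Hbegf*, at 0.470 to 0.790 FPKM, so that these neighbors could not be ordered. *Erbb3*, at 0.860 to 0.970 FPKM, lay over *Egfr*, and *Lrig1*, at 0.150 to 0.220 FPKM, lay over *Erbb2*, at 0.0300 to 0.110 FPKM.

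**Figure D1:**
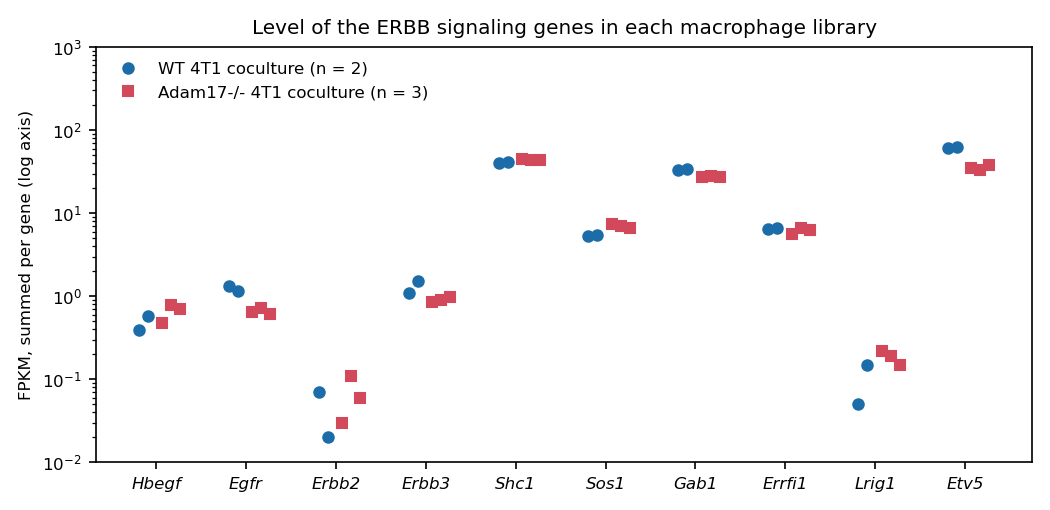
FPKM summed per gene (vertical axis, log scale) for the 10 genes in the 2 WT (circles) and 3 *Adam17*-/- (squares) coculture libraries, 1 point per library. *Etv5*, *Shc1* and *Gab1* lie over 27 FPKM in every library, while the receptor genes *Egfr* and *Erbb3* lie between 0.610 and 1.53 FPKM and *Erbb2* under 0.12 FPKM.

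*Egfr* (Entrez Gene 13649, chromosome 11, 16752203 to 16913907 of GRCm38, plus strand) encodes the receptor of HB-EGF, amphiregulin and EGF. Its reads numbered 124 and 109 with WT cells, against 57, 43 and 54 with *Adam17*-/- cells. In CPM these were 6.49 and 5.90 against 3.12, 2.83 and 2.86. Every *Adam17*-/- library was thus under both WT libraries, with a gap wider than the range within either group. WT libraries averaged 6.19 ± 0.417 CPM (SD, n = 2) and *Adam17*-/- libraries 2.93 ± 0.160 CPM (SD, n = 3). The log2 fold change was -1.07 (SE 0.167, edgeR adjusted p = 0.00185), a 2.11-fold lower level. It was the largest change among the 4 genes that passed in this fit. *Egfr* also passed under all 13 alternative fits, with log2 fold changes of -1.14 to -0.43. The smallest value came from limma on log2(FPKM + 1), a scale that understates changes of low genes, and there *Etv5*, at -0.77, changed more. With 1 library left out, *Egfr* was at -1.14 to -1.01.

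The files list 2 transcripts of *Egfr*. NM_207655 encodes the full-length receptor, with 1210 codons. NM_007912 has 655 codons and matches the truncated form that ends before the membrane-spanning segment and lacks the kinase. According to the GENCODE coding sequences of GRCm38 that carry these RefSeq identifiers, both share their first 1926 coding bases, and the short form then adds 42 bases, the stop codon included. The junction is shown because it is where the receptor either continues into the membrane or ends. The first 30 bases, in lower case, are shared, and capitals mark what follows in each transcript.
Egfr full-length, coding bases 1897 to 1986: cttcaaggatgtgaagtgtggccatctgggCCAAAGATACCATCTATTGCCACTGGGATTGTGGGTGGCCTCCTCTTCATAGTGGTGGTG
Egfr truncated, coding bases 1897 to 1968: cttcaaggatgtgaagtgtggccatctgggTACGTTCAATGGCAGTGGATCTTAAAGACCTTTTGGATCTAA

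Both transcripts were estimated in every library. The full-length transcript was at 0.770 and 0.800 FPKM with WT cells and at 0.480, 0.320 and 0.410 FPKM in the *Adam17*-/- libraries, without overlap. The truncated transcript was at 0.550 and 0.350 FPKM in the WT libraries against 0.170, 0.400 and 0.200 FPKM, and here the groups overlapped through *Adam17*-/- replicate 2. The full-length transcript held 58.3% and 69.6% of the gene's FPKM with WT cells and 73.8%, 44.4% and 67.2% in the *Adam17*-/- libraries, so that no shift in share was visible beyond the spread. These shares rest on 7.72 to 29.7 estimated counts for the truncated form and on how the authors' software divided reads that match both forms.

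*Erbb2* (13866, chromosome 11, 98412484 to 98437716), the ligandless partner of the family, lay near the floor. Its reads numbered 7 and 2 with WT cells, against 3, 8 and 5 with *Adam17*-/- cells, that is 0.108 to 0.526 CPM, and the groups overlapped. It did not pass the filter on low counts, and without that filter its log2 fold change was 0.37 (SE 0.772, edgeR adjusted p = 0.767). *Erbb4* had 0 counts in all 5 libraries, and a count of 0 allows a level of up to 0.157 to 0.197 CPM per library.

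*Erbb3* (13867, chromosome 10, 128567523 to 128589635), a receptor of neuregulins, was counted 89 and 116 times with WT cells, against 59, 53 and 70 with *Adam17*-/- cells. In CPM these were 4.66 and 6.27 against 3.23, 3.48 and 3.70. The groups did not overlap, although the WT libraries differed more from each other than the *Adam17*-/- libraries did. WT libraries averaged 5.46 ± 1.14 CPM (SD, n = 2) and *Adam17*-/- libraries 3.47 ± 0.239 CPM (SD, n = 3), for a log2 fold change of -0.65 (SE 0.190, edgeR adjusted p = 0.0277). This call was weak. It held in 4 of 13 alternative fits, and adjusted p was 0.00868 to 0.145 over them. The log2 fold change was -0.42 without WT replicate 2 (adjusted p = 0.145). The call was also lost when any single *Adam17*-/- replicate was left out, in DESeq2, with library size only and in both limma fits.

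**Figure D2:**
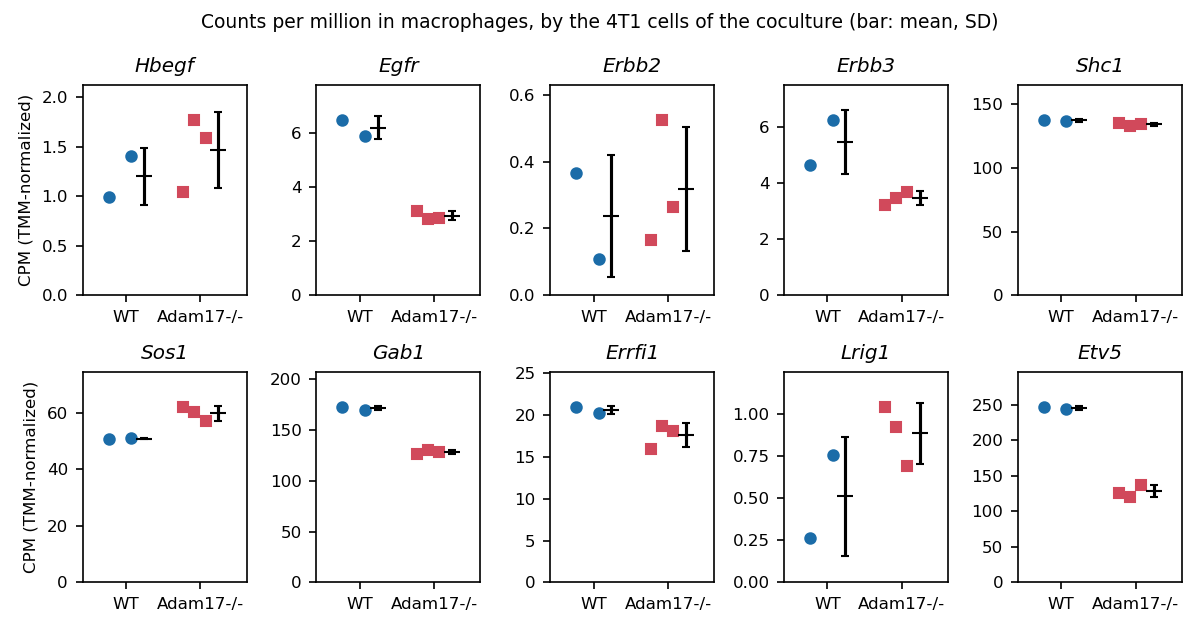
TMM-normalized CPM of the 10 genes (vertical axes start at 0 and differ between panels) in macrophages cocultured with WT (circles, n = 2) or *Adam17*-/- (squares, n = 3) 4T1 cells, with the mean and SD beside the points. The groups are apart and lower with *Adam17*-/- cells in *Egfr*, *Erbb3*, *Gab1* and *Etv5*, while *Erbb2*, *Hbegf* and *Lrig1* overlap.

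*Hbegf* (15200) encodes HB-EGF, a ligand of EGFR that ADAM17 sheds. The macrophages made little of it: 19 and 26 counts with WT cells, against 19, 27 and 30 with *Adam17*-/- cells. In CPM these were 0.994 and 1.41 against 1.04, 1.78 and 1.59, and the groups overlapped. The log2 fold change was 0.28 (SE 0.335, edgeR adjusted p = 0.548), with a 95% interval of -0.47 to 1.03 before adjustment. With 1 library left out it was 0.05 (without WT replicate 1) to 0.55 (without WT replicate 2). A fall of the size seen in *Egfr* lies outside this interval, while a 2-fold rise does not.

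Transcripts of the other EGF-family ligands were mostly at or near the floor. *Areg* (amphiregulin) had 2 counts in WT replicate 1 and 0 in the other 4 libraries, and *Tgfa* had at most 1 count in a library. *Btc* and *Nrg3* were at 0 in all 5 libraries. *Epgn* had 1 to 5 counts and *Nrg2* 1 to 3 counts. *Ereg* had 1 to 4 counts in 4 libraries and 16 in *Adam17*-/- replicate 3. *Egf*, at 9 to 16 counts, and *Nrg4*, at 29 to 36 counts, were tested and did not pass (adjusted p = 0.731 and 0.450, edgeR). The exception in abundance was *Nrg1*, which encodes neuregulin-1, a ligand of ERBB3. At a mean of 11.2 FPKM it was the most abundant of the 11 ligand genes, over *Nrg4* at 1.00 FPKM. It had 26.4 and 27.3 CPM with WT cells and 20.6, 24.5 and 16.2 CPM in the *Adam17*-/- libraries. All 3 *Adam17*-/- libraries lay under both WT libraries, but the log2 fold change of -0.40 (SE 0.152, edgeR adjusted p = 0.0700) did not pass. It passed in 2 of 13 alternative fits, without *Adam17*-/- replicate 2 (-0.53, adjusted p = 0.0399) and without the filter on low counts (-0.40, adjusted p = 0.0346), and adjusted p was 0.0346 to 0.307 over the 13. Of the 4 ligand genes tested, 0 passed by edgeR and 0 by DESeq2 or limma, and 1, *Nrg1*, had an unadjusted p under 0.05. By edgeR 16.8% of all genes tested passed as lower and 14.9% as higher, and 22.6% and 20.9% did at an unadjusted p under 0.05, so that these counts over 4 genes do not set the ligands apart.

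Among the adaptors, *Gab1* decreased, *Shc1* did not differ detectably, and *Sos1* lay higher without passing the test. *Gab1* (14388, chromosome 8, 80764431 to 80880519, minus strand) encodes a docking protein that brings PI3K and the phosphatase SHP2 to activated receptors. It had 173 and 170 CPM with WT cells and 126, 130 and 128 CPM in the *Adam17*-/- libraries. Replicates differed by a few CPM, and the groups were far apart relative to that spread. WT libraries averaged 172 ± 1.99 CPM (SD, n = 2) and *Adam17*-/- libraries 128 ± 1.96 CPM (SD, n = 3), for a log2 fold change of -0.42 (SE 0.0750, edgeR adjusted p = 0.00356). The call held in 12 of 13 alternative fits and was missed in limma on log2(FPKM + 0.1), with -0.27 (adjusted p = 0.0576).

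*Gab1* is listed with 2 transcripts, which differ in the coding sequence by 90 bases that NM_001301298 has and NM_021356 lacks. The stretch is shown in capitals between 15 shared bases on each side, since it is what tells the transcripts apart.
Gab1 longer coding form, coding bases 1574 to 1693: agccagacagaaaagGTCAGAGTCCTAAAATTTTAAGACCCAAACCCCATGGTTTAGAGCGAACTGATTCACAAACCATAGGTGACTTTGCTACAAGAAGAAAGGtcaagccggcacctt

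The form without these bases held 87.0% and 91.8% of the gene's FPKM with WT cells and 90.1%, 90.1% and 89.1% in the *Adam17*-/- libraries. It was at 28.6 and 31.1 FPKM with WT cells and at 24.7, 25.2 and 24.6 FPKM in the *Adam17*-/- libraries, so that the major form was lower without overlap. The minor form, at 4.29 and 2.78 against 2.71, 2.78 and 3.00 FPKM, overlapped between the groups.

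*Shc1* (20416, chromosome 3, 89418551 to 89430029, plus strand) encodes an adaptor that links receptors to GRB2. It had 138 and 137 CPM with WT cells and 135, 133 and 134 CPM in the *Adam17*-/- libraries. The values were ordered without overlap but within a few percent of each other, and the log2 fold change was -0.03 (SE 0.0752, edgeR adjusted p = 0.762), with a 95% interval of -0.20 to 0.14. The sign depended on the scaling, at 0.11 with library size only. The longer *Shc1* coding sequence, NM_001113331, has 579 codons, as the p66 form does. It carries 330 coding bases ahead of the start codon of NM_011368, the p52 form, whose coding sequence is otherwise the end of the longer one. The boundary is shown with the bases of the long form in capitals and the shared start, atg first, in lower case.
Shc1 longer form, coding bases 301 to 360: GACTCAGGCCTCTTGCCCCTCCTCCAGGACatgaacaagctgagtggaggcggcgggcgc

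The p52 transcript was the main one. The p66 transcript held 18.3% and 16.7% of the gene's FPKM with WT cells and 15.7%, 20.2% and 25.6% in the *Adam17*-/- libraries. These ranges overlapped, with *Adam17*-/- replicate 3 the highest and *Adam17*-/- replicate 1 the lowest.

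*Sos1* (20662, chromosome 17, 80393752 to 80480453) encodes the exchange factor that loads RAS with GTP. It had 50.7 and 50.9 CPM with WT cells and 62.0, 60.4 and 56.9 CPM in the *Adam17*-/- libraries. All 3 *Adam17*-/- libraries were over both WT libraries. The log2 fold change was 0.23 (SE 0.0845, edgeR adjusted p = 0.0592), just outside the threshold. It was positive in all 13 alternative fits and passed in 6 of them, among them upper quartile factors (0.29, adjusted p = 0.0270), library size only (0.38, adjusted p = 0.0111) and the fit without WT replicate 2 (0.24, adjusted p = 0.0394). Adjusted p was 0.0111 to 0.220 over the 13. Over all genes tested, the median change was 0.16 with library size only, against 0.01 with TMM factors. *Sos2*, its close relative, was at 89.4 and 94.6 CPM against 91.7, 92.0 and 86.5 CPM, a change of -0.03 on the log2 scale (edgeR adjusted p = 0.800), and it was at 0.12 with library size only. *Sos2* and the relatives *Grb2*, *Gab2*, *Lrig2* and *Etv1* were chosen for mention after their values were seen. *Grb2*, which joins SHC1 to SOS1, and *Gab2* did not pass, at -0.11 (adjusted p = 0.301) and -0.14 (adjusted p = 0.208), and both were over 0 with library size only, at 0.04 and 0.01.

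**Figure D3:**
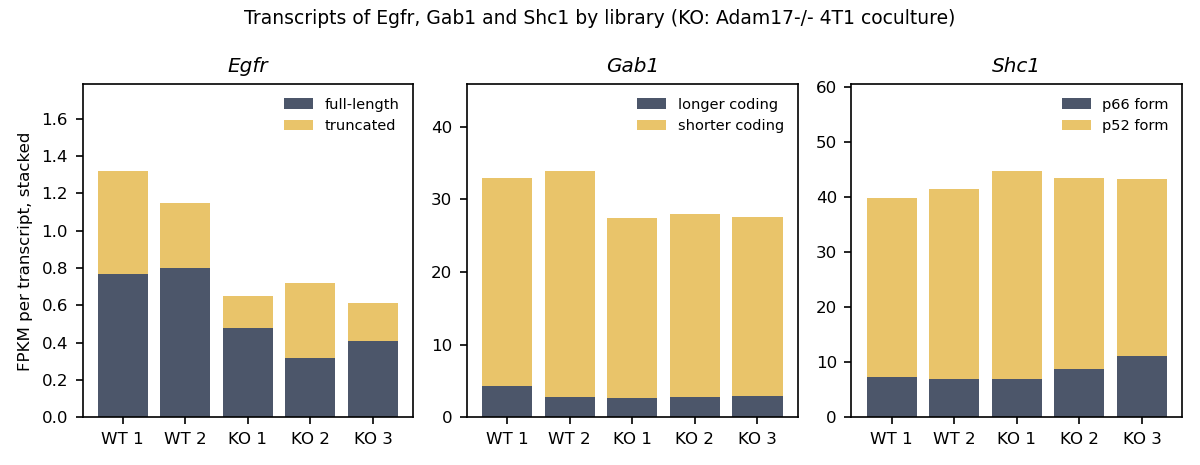
FPKM per transcript, stacked, of *Egfr*, *Gab1* and *Shc1* in each library (WT 1 and 2, and *Adam17*-/- 1 to 3, marked KO). The full-length form holds 44.4% to 73.8% of *Egfr* and the p52 form 74.4% to 84.3% of *Shc1*, and the *Egfr* bars are lower in all 3 *Adam17*-/- libraries.

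The feedback genes did not move together. *Etv5* (104156, chromosome 16, 22381313 to 22439570), an ETS-family transcription factor whose transcript rises with ERK activity in many cells, had 247 and 244 CPM with WT cells and 127, 121 and 138 CPM in the *Adam17*-/- libraries. The highest *Adam17*-/- value was far under the lowest WT value. WT libraries averaged 246 ± 2.30 CPM (SD, n = 2) and *Adam17*-/- libraries 128 ± 8.69 CPM (SD, n = 3). The log2 fold change was -0.94 (SE 0.0836, edgeR adjusted p = 0.000271), a 1.91-fold lower level. It passed under all 13 alternative fits, with log2 fold changes of -0.99 to -0.77. *Etv1*, a relative in the same ETS subfamily, also decreased, from 34.2 and 41.2 CPM to 27.1, 24.9 and 27.9 CPM (log2 fold change -0.50, SE 0.109, edgeR adjusted p = 0.00859). That call was lost without *Adam17*-/- replicate 2 (-0.44, adjusted p = 0.0554) and in both limma fits. *Etv4* had 2 to 8 counts and was not tested.

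*Errfi1* (74155, chromosome 4, 150853796 to 150868889) encodes an inhibitor that binds the kinase domain of EGFR. It had 21.0 and 20.3 CPM with WT cells and 16.0, 18.7 and 18.0 CPM in the *Adam17*-/- libraries. The *Adam17*-/- libraries were lower without overlap, but the log2 fold change of -0.23 (SE 0.109, edgeR adjusted p = 0.134) did not pass, and it passed in 0 of 13 alternative fits. Its 95% interval was -0.48 to 0.01. A fall as large as that of *Etv5* lies outside this interval.

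*Lrig1* (16206, chromosome 6, 94604529 to 94700298) encodes a membrane protein that promotes the degradation of ERBB receptors. Its reads numbered 5 and 14 with WT cells, against 19, 14 and 13 with *Adam17*-/- cells, or 0.262 and 0.757 CPM against 1.04, 0.920 and 0.688 CPM. The groups overlapped, and WT replicate 1 was the lowest value. The log2 fold change of 0.79 (SE 0.479, edgeR adjusted p = 0.233) did not pass, and it hung on single WT libraries, at 1.72 without WT replicate 2 (adjusted p = 0.0610) and 0.21 without WT replicate 1 (adjusted p = 0.792). Its 95% interval, -0.28 to 1.86, is the widest among the 9 genes. *Lrig2*, at 22.5 and 24.9 against 27.1, 26.2 and 27.5 CPM, did not pass either (0.18, adjusted p = 0.179), except with library size only (0.33, adjusted p = 0.0376).

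**Figure D4:**
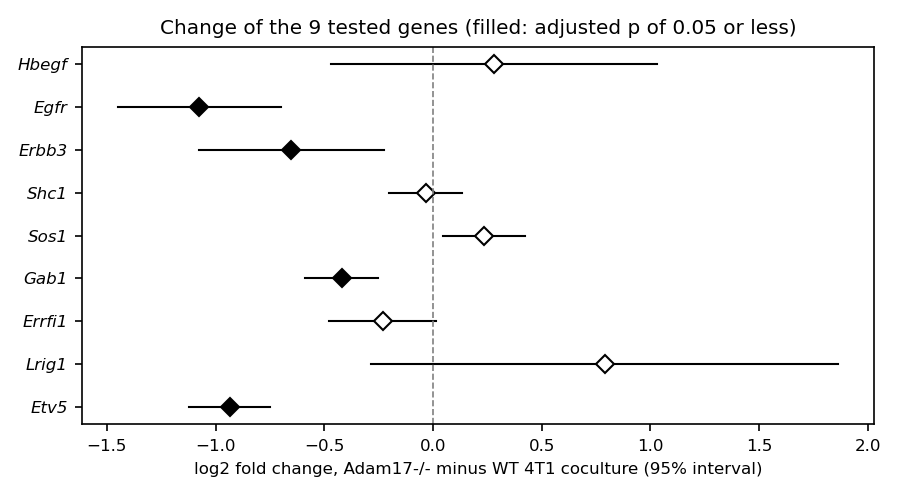
Log2 fold change (*Adam17*-/- minus WT coculture, horizontal axis) of the 9 genes tested, with 95% intervals from the edgeR fit before adjustment; filled symbols passed at an adjusted p of 0.05 or less. *Egfr* (-1.07) and *Etv5* (-0.94) lie farthest to the left, and *Hbegf* and *Lrig1* have the widest intervals.

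The profile of *Egfr*, the gene with the largest change among the 4 that passed, was compared over the 5 libraries with those of the 12567 genes tested outside the 10. The measure was the root-mean-square difference between log2 CPM values, each centered on its gene's mean. The closest were *Sh3bp5* (0.0546), *Dok2* (0.0665) and *Slc39a14* (0.0686). *Dok2* encodes a docking protein of blood cells that recruits a RAS inhibitor, and *Slc39a14* a metal ion transporter. *Sh3bp5* was at 101 and 96.1 CPM with WT cells and at 50.3, 49.4 and 49.9 CPM in the *Adam17*-/- libraries. With 5 libraries in 2 groups, such likeness mostly restates a similar difference between the groups.

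Around the 10 genes, 83 genes of the pathway were described as 6 lists that contain them. Of these, 79 had a count and 67 were tested. 20 passed as lower and 5 as higher by edgeR, where 16.8% and 14.9% of all genes tested did, and the median log2 fold change was -0.17, against 0.01 over all genes tested. The number higher was 9 without WT replicate 2, where 19.1% of all genes tested passed as higher. It was 2, 3 and 2 without *Adam17*-/- replicates 1, 2 and 3, where 8.73%, 9.96% and 9.74% of all genes did, so that the share over all genes moved in the same direction. It was 13 with library size only, where 24.0% of all genes tested passed as higher.

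ERK-dependent transcripts are those that ERK activity is known to raise, at the end of the pathway. ERK activity was not measured in these samples, and the part of ERBB receptors in the changes below was not tested. Of 18 ERK-dependent transcripts, 16 were tested, and 10 passed as lower and 0 as higher, with a median of -0.71, where 16.8% and 14.9% of all genes tested passed. At an unadjusted p under 0.05, 11 were lower and 0 higher (22.6% and 20.9% of all genes), and DESeq2 called 10 lower and 0 higher (14.9% and 12.6%). The largest changes were those of *Ccnd1* (cyclin D1), *Myc*, *Dusp4* and *Dusp5*, the last a pair of nuclear phosphatases that act on ERK. *Ccnd1* went from 133 and 93.0 CPM to 19.9, 17.5 and 28.5 CPM (log2 fold change -2.36, SE 0.197, edgeR adjusted p = 0.000199). *Myc* went from 67.5 and 51.4 CPM to 15.7, 14.7 and 23.3 CPM, a log2 fold change of -1.73. *Dusp4* (-1.24) and *Dusp5* (-1.18) passed with adjusted p of 0.00103 and 0.00289 in edgeR. In all 4 genes the groups were apart, and all 4 passed under all 13 alternative fits. These 4 were picked as the largest changes among the transcripts that had passed, so that both traits largely follow from the choice. Over all genes tested, 29.7% were lower without overlap. The list was not uniform: *Ier3* (0.10), *Spry1* (0.06), *Fos* (-0.16), *Spred1* (-0.27), *Egr1* (-0.58) and *Fosl1* (-0.61), named after their values were seen, did not pass.

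Of 13 genes from RAS to ERK, all tested, 3 passed as higher and 2 as lower, with a median of -0.03. These shares are near the 14.9% and 16.8% of all genes tested. Limma on log2(FPKM + 0.1) called 4 higher and 0 lower (19.7% and 5.61% of all genes), and on log2(FPKM + 1) 4 higher and 1 lower (22.7% and 7.69%). *Braf* rose from 88.8 and 107 CPM to 146, 138 and 148 CPM (log2 fold change 0.55, SE 0.0978, edgeR adjusted p = 0.00342), and *Araf* from 90.8 and 90.8 CPM to 133, 120 and 119 CPM (0.45, adjusted p = 0.00505). *Rasa1*, a RAS inhibitor named after its value was seen, also passed as higher (0.43, adjusted p = 0.0176). Its call was lost without *Adam17*-/- replicate 1 or 3 and with the replicate number as a block. *Hras* (-0.44, adjusted p = 0.0199) and *Map2k2* (-0.43, adjusted p = 0.00560), which encodes the ERK kinase MEK2, fell. The *Hras* call held in 7 of 13 alternative fits and was lost without WT replicate 1, without *Adam17*-/- replicate 1 or 2, with library size only and in both limma fits. The *Map2k2* call was lost in limma on log2(FPKM + 0.1), with an adjusted p of 0.0593.

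Of 22 adaptor genes, 19 were tested, and *Gab1* and *Plcg2* passed as lower and *Frs2* as higher, with a median of -0.14. Neither count exceeds what the 16.8% lower and 14.9% higher of all genes tested would give. *Plcg2*, a phospholipase that acts downstream of Fc receptors and other receptors of myeloid cells, went from 325 and 310 CPM to 221, 217 and 224 CPM (log2 fold change -0.53, SE 0.0755, edgeR adjusted p = 0.00136). *Frs2*, a docking protein of FGF receptors, rose by 0.32 (adjusted p = 0.0242), and its call was lost when any single *Adam17*-/- replicate was left out.

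Of 15 genes for receptor inhibition and turnover, 13 were tested, 4 passed as lower and 1 as higher, with a median of -0.11, where 16.8% and 14.9% of all genes tested passed. Both limma fits called 1 lower and 0 higher, where 5.61% and 19.7% of all genes passed with 0.1 added and 7.69% and 22.7% with 1 added. *Ptprj*, a receptor phosphatase, fell from 306 and 306 CPM to 195, 221 and 215 CPM (log2 fold change -0.54, SE 0.0835, edgeR adjusted p = 0.00182). *Rnf41* (-0.34) and *Cblb* (-0.31), both ubiquitin ligases, passed as lower, and *Ptpn2* (0.29), a phosphatase, as higher. These 3 calls were lost without WT replicate 1, at -0.21, -0.20 and 0.19, and when any single *Adam17*-/- replicate was left out. They were also lost in both limma fits. The calls of *Rnf41* and *Cblb* were lost with upper quartile factors and library size only too, and that of *Ptpn2* in DESeq2. *Rnf41* and *Cblb* passed in 4 of 13 alternative fits and *Ptpn2* in 5. *Socs5*, named after its value was seen, also passed as lower (-0.28, adjusted p = 0.047). Its call was lost in DESeq2 and in both limma fits.

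**Figure D5:**
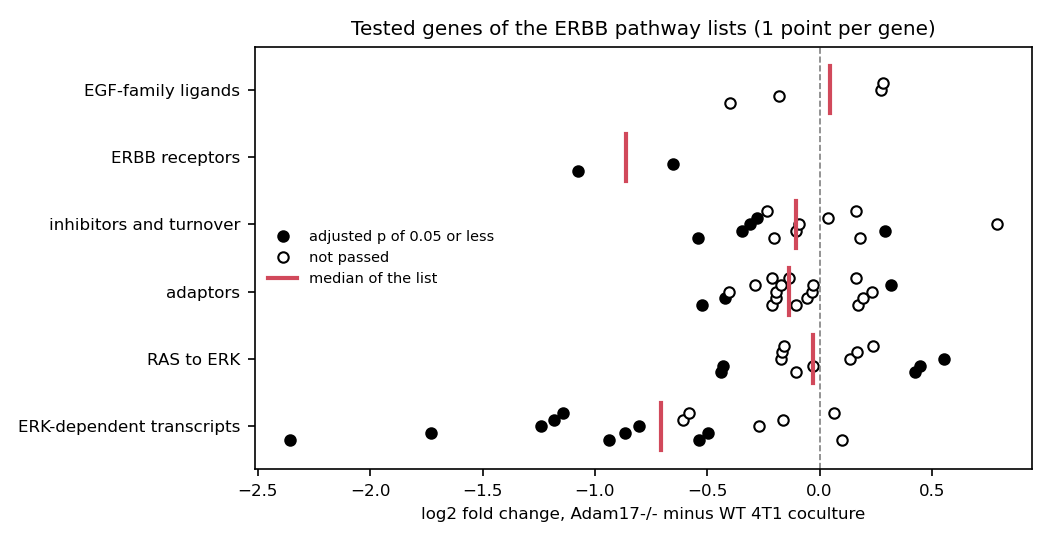
Log2 fold change (*Adam17*-/- minus WT coculture, horizontal axis) of the 67 tested genes of the 6 pathway lists, 1 point per gene, filled where edgeR's adjusted p was 0.05 or less, with the median of each list as a bar. The medians are -0.71 for ERK-dependent transcripts, -0.86 for the 2 receptors tested, and between -0.14 and 0.05 for the other 4 lists.

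The promoters of the genes were read from RefSeq sequences of GRCm38.p6, as the 250 bases before each annotated start. 8 of the 10 genes matched, with 12 start sites between them, and *Erbb3* and *Hbegf* did not. The window of *Egfr* and 1 of the 2 windows of *Etv5*, the largest decreases, are shown with GC boxes (GGGCGG on either strand) in capitals.
Egfr promoter, chr11:16751953-16752202, plus strand: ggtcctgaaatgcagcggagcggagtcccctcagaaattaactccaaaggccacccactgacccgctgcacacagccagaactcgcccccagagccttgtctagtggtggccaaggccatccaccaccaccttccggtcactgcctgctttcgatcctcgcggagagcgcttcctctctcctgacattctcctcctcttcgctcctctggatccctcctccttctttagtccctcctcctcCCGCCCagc
Etv5 promoter, chr16:22439571-22439820, minus strand: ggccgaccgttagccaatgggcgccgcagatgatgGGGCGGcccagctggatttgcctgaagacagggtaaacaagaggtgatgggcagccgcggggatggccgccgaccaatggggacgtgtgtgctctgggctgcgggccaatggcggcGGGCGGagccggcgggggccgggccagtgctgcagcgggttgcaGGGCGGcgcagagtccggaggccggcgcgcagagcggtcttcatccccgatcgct

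The *Egfr* window held 1 GC box and this *Etv5* window 3, while a second *Etv5* start site had a window with 0. At least 1 was found in 7 of the 12 windows, of 6 of the 8 genes, and in 32.7% of 32851 windows of all genes. The 7 include both windows of *Gab1*, which overlap and hold the same 2 boxes. An AP-1 site (TGANTCA) was found in 1 of the 12 windows, upstream of *Shc1*, against 6.75% of all windows. A CRE (TGACGTCA) was found in 1, upstream of *Errfi1*, against 1.55%. The ETS sequence CCGGAAGT was found in 0 of 12 windows and in 2.88% of all. These matches are descriptions of letters in a short window.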

How the data were processed

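Poly-A RNA of 5 BMDM samples was sequenced paired-end on a BGISEQ-500. According to the study's methods, the authors aligned reads to GRCm38 with HISAT and used Bowtie2 for quantification, and the submitters' processing notes also name RSEM, DESeq2 and mm10 (versions not given in the sources used here). The authors deposited, per library and transcript, an expected count (reads matching several transcripts are divided among them) and an FPKM value, normalized to transcript length and library size. No FPKM under 0.01 is listed, and unlisted transcripts were taken as 0. Whether strand was used in counting is not given in the sources used here.

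Expected counts were summed per Entrez gene, rounded, and compared in R 4.3.3 by edgeR 4.0.16 (TMM factors of 0.920 to 1.05, filterByExpr, glmQLFit and glmQLFTest, no covariates, Benjamini-Hochberg adjustment over 12576 genes). Standard errors and 95% intervals come from that fit. Values per library for log2 profiles used a prior count of 2. The smallest p that an exact permutation of 2 against 3 samples allows is 0.1. Alternatives were DESeq2 1.42.0 and limma 3.58.1 on log2(FPKM + 0.1) and log2(FPKM + 1), other scalings, filters and thresholds, the replicate number as a block, and each library left out in turn. Where 1 WT library remained, it was assumed to vary like the other group. Scripts were tested on simulated data. Transcript structure came from GENCODE M21 and gene symbols and positions from RefSeq (GRCm38.p6). The sequences are of C57BL/6J, not Balb/c. Figures used matplotlib 3.10.9 (Python 3.11.15, pandas 2.3.3).

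The 10 genes, the lists and the tests were chosen with earlier results of these data known, so that their counts are descriptions. All 10 genes were named. Of the other lists, every EGF-family ligand and ERBB receptor was named, as were up to 4 genes per list with the largest absolute log2 fold change among those that passed, and the 3 profiles nearest to the gene with the largest change.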

Additional observations from a re-analysis of the deposited data

How the results depend on the processing

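The number of the 10 genes that passed as lower was 4, and it was 2 with limma on log2(FPKM + 0.1), and 1 with either a limit of 1 on the absolute log2 fold change or an adjusted p under 0.001 with a log2 limit of 0.25. With 1 library left out it was 3 to 4. The number that passed as higher was 0, and it was 1 (*Sos1*) with upper quartile factors, library size only, both limma fits and at least 10 counts in every library. Of all genes tested, 17.8% passed as higher with upper quartile factors and 24.0% with library size only. The share was 19.7% and 22.7% in the limma fits with 0.1 and 1 added, and 15.9% with at least 10 counts in every library. The number for the 10 genes was also followed over fits with fewer libraries. With 1 library left out it was 0 to 1. Of the 67 pathway genes tested, 20 passed as lower (16.8% of all genes). With limma on log2(FPKM + 0.1) 11 did (5.61% of all genes), and under the stricter thresholds 6 and 6 (0.867% and 1.42%). With 1 library left out the number was 15 to 26 (7.42% to 22.8% of all genes). The 5 that passed as higher (14.9% of all genes) became 13 with library size only (24.0%), 0 under either stricter threshold (3.36% and 1.05%), and 2 to 9 with 1 library left out (8.73% to 19.1%). With the replicate number as a block, 17 pathway genes were lower and 2 higher (8.96% and 9.67% of all genes). Among the 10 genes 3 were lower in that fit and *Erbb3* was lost (adjusted p = 0.0530). Of the pathway lists, *Rnf41* (0.0823), *Cblb* (0.164), *Ptpn2* (0.236), *Frs2* (0.200) and *Rasa1* were lost too. Libraries with the same replicate number share no stated origin. Deviations of same-numbered libraries from their group means correlated at -0.12 and -0.05 (across genes, which are not independent replicates), so the numbers were not taken as pairs.

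Among single genes that had not passed, the sign turned with the scaling. *Shc1* was at 0.0236 with upper quartile factors, 0.11 with library size only and 0.11 in both limma fits. *Sos2* was at 0.0264, 0.12, 0.12 and 0.11 in these, and at -0.0748 to 0.0173 with 1 library left out (over 0 without WT replicate 2 or *Adam17*-/- replicate 3). With library size only and in the limma fits with 0.1 and 1 added, *Gab2* was at 0.01002, 0.0104 and 0.0101 and *Grb2* at 0.0392, 0.0398 and 0.0392. Of 440 values of single genes under an alternative, 365 kept direction and side of the threshold, 50 lost the call, 9 gained it and 16 turned sign, and the cause was not tested. Library size only and limma on log2(FPKM + 0.1) moved the median of all genes to 0.16 and 0.15. Depth limits *Erbb2*, *Lrig1*, *Hbegf* and the truncated *Egfr* transcript, which rest on at most 30 counts in a library.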
